A study of Homo sapiens with 16 samples.

Results

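These data describe where N6-methyladenosine (m6A), a methyl mark on adenosines of messenger RNA, was called in parental U87 MG cells, an established human glioma line. The study has 16 samples, of which 8 are m6A-eCLIP libraries, and the map below rests on the 3 libraries of U87 MG (U87), the authors' list of reproducible U87 sites and their list of reproducible U87 peaks, all chosen by the sample labels. The U87 cells were grown in EMEM with fetal bovine serum and penicillin/streptomycin and carried the label DMSO control; they received neither temozolomide nor the METTL3 inhibitor STM2457 that other groups of the study had. Whether the 3 replicates were separate cultures is not said in the labels, and the spread between them may be technical. The libraries held 150135, 171012 and 182556 called bases, and 288763 different bases were called in at least 1 of them. Since the report covers 1 group, it holds no test between groups, and no p-value is given.

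In m6A-eCLIP, polyA RNA is fragmented, bound by an m6A antibody and crosslinked to it, and the crosslinked base is read from the sequencing. Most m6A in messenger RNA is laid down by a complex of METTL3 and METTL14, on an adenosine that stands before a C and after an A or a G, and it is known to gather in long internal exons and near stop codons. Antibodies to m6A also bind m6Am, a mark that the enzyme PCIF1 puts on an adenosine that is the first base of the RNA after the cap. Each called base has a score from the authors; the sources used here do not say how it was computed. Positions missing from a library's list were given no score. The lists hold no read counts, so depth is unknown and a score is not a methylation level. The input libraries were not analysed here, so an RNA's methylation and its abundance are joined in every value below.

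The letters under the called bases were known only in windows that reach from 250 nt before to 50 nt after RNA starts of RefSeq (GRCh38.p14), which held 8018 of the bases called in all 3 libraries. To show sites away from annotated starts, reproducible sites were used that lay more than 50 nt before one. They also lay inside a gene whose span begins more than 50 nt farther upstream. Of these, the 6 with the highest combined score were taken, 1 per gene. Exons were not used, so whether they lie in an exon or near an unannotated start is unknown. Capitals mark the 5 bases centred on the called base, with the strand and hg38 window before each sequence.
UBB, plus strand, chr17:16381081-16381101: agcccggaGCATTtaggggcg
TLNRD1, plus strand, chr15:81001920-81001940: agcagaagGGACTttcctggc
SNX33, plus strand, chr15:75648908-75648928: tgggccatGGACAttgctttg
DYRK1A, plus strand, chr21:37367460-37367480: ccgaggagAGACTgagcaggc
RASA1, plus strand, chr5:87268696-87268716: ggggagctGGACTgacagggg
HDAC7, minus strand, chr12:47819951-47819971: atttccttCCATTgtcatcct
The site in UBB, a polyubiquitin gene, had scores of 129, 117 and 118 in replicates 1 to 3, and the site in TLNRD1, a talin rod domain protein, had 117, 101 and 103. In SNX33, a sorting nexin, the scores were 78.5, 129 and 92.8. In DYRK1A, a protein kinase, they were 80.1, 75.3 and 83.7. TLNRD1, SNX33, DYRK1A and RASA1 showed GAC around the called base, whereas UBB and HDAC7 showed CAT.

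The corresponding 6 sites at the annotated first base of an RNA are shown for contrast. Capitals mark the called base and the base before it.
PPP1R12C, minus strand, chr19:55117627-55117647: ggccagcggCAgttcccggcg
WDR26, minus strand, chr1:224434787-224434807: cctggactcCAttaggcagca
S100A6, minus strand, chr1:153535981-153536001: gacacagccCAtcccctcgac
CD63, minus strand, chr12:55728999-55729019: gggcgcagcTAgagagccccg
ZMIZ2, plus strand, chr7:44748837-44748857: cggcggctcCAttgtgccctc
NOP56, plus strand, chr20:2652622-2652642: cgctagccgCAttgcgagccg
PPP1R12C, a myosin phosphatase subunit, had scores of 135, 129 and 126 at its first base, and S100A6, a calcium-binding protein, had 128, 112 and 119. In 5 of these 6 sites the base before the called A was a C. Every reproducible site with a known letter was an A, so the A itself follows from the choice of sites.

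Over all such windows, the surroundings of the called A varied with the distance from the start. More than 50 nt before a start, 69 of 98 reproducible sites (70.4%) had AAC or GAC centred on the called A, against 10.5% of every A in the same stretch, and 27 (27.6%) had GGACT, against 0.453%. Within 2 nt of a start, 9 of 751 reproducible sites (1.20%) had AAC or GAC, against 10.4% of every A there, and 554 (73.8%) were an A after a C, against 42.3%. The 761 reproducible sites 3 nt or more after a start had AAC or GAC in 5.26% and an A after a C in 59.7%, against 11.2% and 31.0% of every A there. At 3 to 50 nt before a start, 11 of 106 (10.4%) had AAC or GAC, against 10.7%, and 45.3% an A after a C, against 29.4%. Motifs were read on the strand of the called base, GGACT is a case of GAC, and a match describes the letters only.

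At the annotated first base itself, 1372 bases were called in all 3 libraries, and 96.9% of them were A, where 44.4% of all annotated starts have A. A further 1057 were called 1 nt before the annotated start, of which 79.7% were C and 2.65% A. Of the 1057, 4 were on the authors' reproducible list, and of the 1372, 579 were. Both positions were thus called often, but the list kept only A, and not all of them. Among bases called in all 3, it held 579 of 1329 A at the first base and 4 of 28 A 1 nt before it.

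The same windows showed which called bases reached the authors' reproducible list, a step the sources used here do not describe. All 1716 reproducible sites in the windows were an A, where 52.3% of the bases called in all 3 libraries were A, 24.3% C, 17.4% T and 5.92% G. Among A inside a reproducible peak that scored 10 or more in every library, 1405 of 1405 were listed. Outside peaks 4 of 1261 such A were, and among other letters none of 1176 inside and none of 959 outside peaks. Where 2 libraries scored 10 or more, 307 of 339 A inside a peak were listed. Apart from those 4, every listed site with a score of at least 10 in 2 or 3 libraries was thus an A inside a peak where the letter was known.

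Across the genome the libraries were much alike in size and score. The median score was 7.82 ± 0.163 (SD, n = 3), 44.0% ± 0.493 of bases scored at least 10, and a library's highest score was 567, 708 or 594. Of the 288763 bases, 79668 (27.6%) were called in all 3 libraries, 55604 (19.3%) in 2 and 153491 (53.2%) in 1. Any 2 libraries shared 41.0% to 41.7% of the bases called in either. At shared bases Pearson's r of log2 scores was 0.61 to 0.63 (93837 to 102834 bases that share transcripts and libraries), and 60.5% to 61.9% of them were within 2-fold of each other.

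Agreement rose steeply with score, as the plot of agreement by score shows. Of bases scoring under 2 in a library, 12.2% ± 3.60 (SD, n = 3 libraries) were called in all 3. The share was 36.2% ± 7.02 at scores of 5 to 10, 59.6% ± 8.26 at 10 to 20, 88.5% ± 3.72 at 20 to 50 and 99.0% ± 0.435 at 50 to 100. In every band under 50 it was highest for bases of replicate 1, which had the fewest called bases, and lowest for those of replicate 3, which had the most. By position, 44.6% of bases within 2 nt of an annotated start were called in all 3 libraries, against 28.0% of those in the body of a gene and 20.5% of those given to no single gene. Inside reproducible peaks 36.8% were, and outside them 16.2%.

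**Figure D1:**
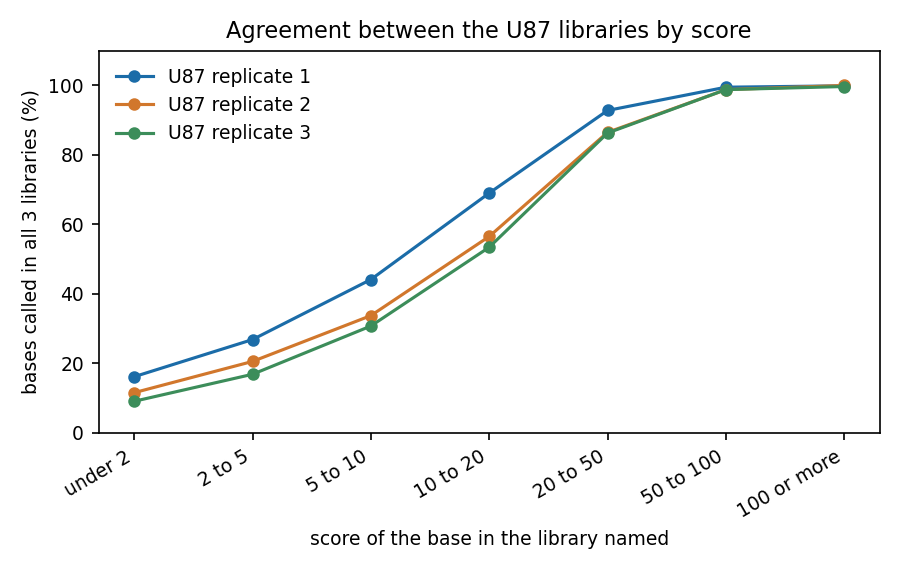
Share of bases called in all 3 U87 libraries (y axis, percent) by the score of the base in the library named (x axis, score bands), 1 line per library. The lines run from 9.02% to 16.1% in the lowest band to 99.7% or more at scores of 100 or more.

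Between libraries, log2 sums over genes had a higher Pearson's r than log2 scores of shared bases. The 2 kinds of value cover different sets, so their r does not compare their spread. The score of a gene in a library was taken as the sum over its called bases. A sum thus grows with the number of bases, their scores and the amount of RNA. Counts of called bases and sums per gene include bases of every letter. Letters were known near annotated starts only, where 52.3% of bases called in all 3 libraries were A. The share elsewhere is unknown. Over 9707 genes Pearson's r of log2 sums was 0.908 between replicates 1 and 3, 0.875 between 1 and 2, and 0.873 between 2 and 3. Of the 100 genes with the highest sums in each library, 81 were the same in all 3. The median ratio of the highest to the lowest of a gene's 3 sums was 1.40 among 5613 genes with a mean sum of at least 100, and 2.23 among 3479 genes with a mean of 10 to 100 and a called base in each library. Of all 3748 genes with a mean of 10 to 100, 7.18% had no called base in some library and are not in that median.

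Among genes whose sum reached 100 in every library, the widest ratios were those of THBD, ARTN, MIR210HG, ITGAX and SPAG5. THBD encodes thrombomodulin, an anticoagulant receptor, and had sums of 178, 1083 and 409 in replicates 1 to 3. ARTN, a neurotrophic factor of the GDNF family, had 104, 625 and 193. SPAG5, a protein of the mitotic spindle, had 110.3, 472 and 147. In those 3 genes replicate 2 was the highest library. MIR210HG, the host RNA of the hypoxia-induced miR-210, had 536, 133 and 768, and ITGAX, an integrin, had 267, 105 and 463. In both, replicate 2 was the lowest, so the same library stood apart in all 5.

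The 12 genes with the most called bases were of several kinds. AHNAK (chr11:62433544-62546806, minus strand), a giant scaffold protein, had 148 bases called in all 3 libraries, from 222, 225 and 251 in the single libraries, and 51 reproducible sites. FAT1, a giant protocadherin, followed with 122 bases called in all 3, the cytolinker PLEC with 117 and COL6A3, a chain of collagen VI, with 102. Next came the microtubule-binding protein MAP1A with 100, MACF1, which links actin to microtubules, with 92, the ciliary protein EVC with 90 and AHNAK2 with 89. SON, a protein of nuclear speckles, had 82, the long noncoding RNA TUG1 80, the membrane protein LRRC15 78 and IRS1, the adaptor of the insulin receptor, 73. Per kb of gene span none of these 12 stayed among the 12 highest. Over 8836 genes with such a base, Spearman's rank correlation between their number and the length of the gene span, introns included, was 0.04.

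The order by sum of scores was similar at the top but not the same. AHNAK had sums of 6045, 5640 and 6383 (mean 6023 ± 372, SD, n = 3). COL6A3 had 4782, 5016 and 5508, and TNC, which encodes the matrix glycoprotein tenascin-C, had 4873, 5189 and 4909. AHNAK exceeded every other gene in all 3 libraries except FAT1, whose sum in replicate 2 (5787) was above that of AHNAK. The means of MACF1 (4948 ± 417), MAP1A (4901 ± 235), FAT1 (4897 ± 832), EVC (4817 ± 432), PLEC (4738 ± 367) and LRRC15 (4690 ± 844) differed by less than their SDs. ARHGAP35, a GTPase-activating protein, NFE2L1, a transcription factor of proteasome genes, and TNKS1BP1, a tankyrase-binding protein, completed the 12 with means of 4256, 4114 and 3933. TNC ranked 3 by sum with 53 bases called in all 3, while PLEC ranked 8 with 117.

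**Figure D2:**
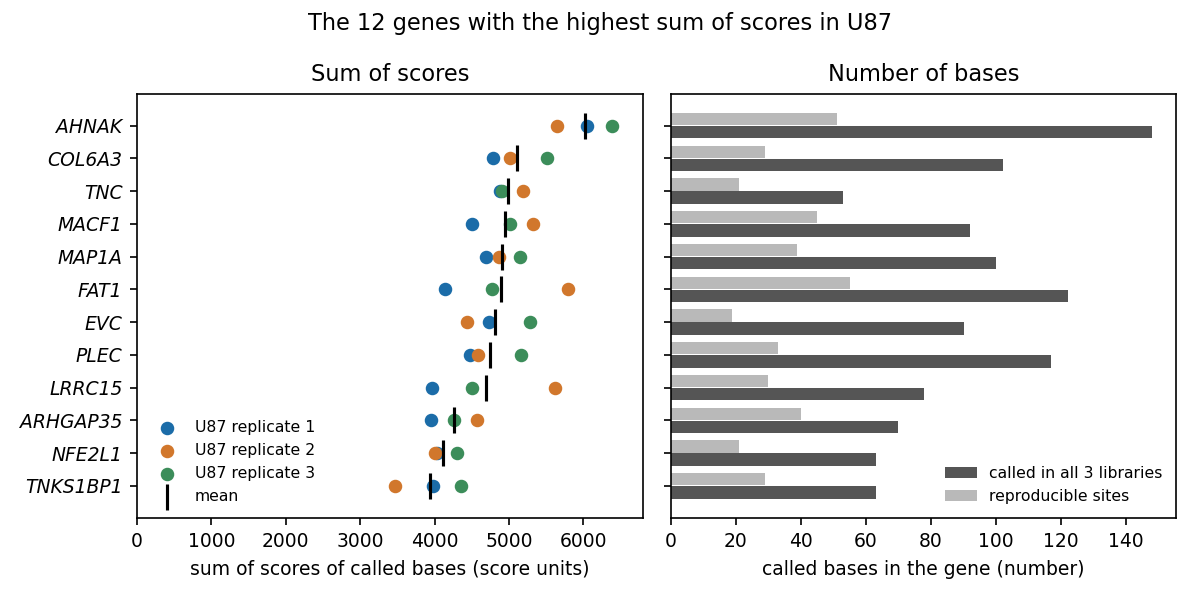
Left, sum of scores (x axis, score units) of the 12 U87 genes with the highest mean sum, 1 point per library and a bar for the mean; right, their bases called in all 3 libraries and their reproducible sites (x axis, number). AHNAK lies at 5640 to 6383. TNC reaches 4873 to 5189 and has 53 bases called in all 3, the fewest of the 12.

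Reproducible sites ranked genes differently, a ranking added after the values were seen. FAT1 had the most, 55, followed by AHNAK with 51, MACF1 with 45, IRS1 with 42, ARHGAP35 with 40, and MAP1A and the histone methyltransferase KMT2D with 39 each. SON and TUG1 had 36 each and ANKRD11, a chromatin regulator, 34. PLEC, ZBTB38 and H6PD, an enzyme of the endoplasmic reticulum, had 33 each. The list is not a subset of the bases called in all 3: of 31844 reproducible sites in genes, 29858 were called in all 3. EVC dropped from rank 7 by called bases to rank 125, with 19 reproducible sites beside 90 bases called in all 3. IRS1 had 42 beside 73 and KMT2D 39 beside 55, whereas MALAT1, a nuclear long noncoding RNA, had 9 beside 60 and COL6A2 4 beside 57.

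Called bases per gene were few for most genes and many for some. Of 8836 genes with a base called in all 3 libraries, 1191 (13.5%) had 1 such base, the median was 5, 787 had 20 or more and 44 had 50 or more. Without replicate 1, where calls in the other 2 libraries were enough, 1213 genes had 20 or more. The 883 genes with the most bases held 34.8% of the 72587 bases assigned to genes. Reproducible sites were fewer: 6870 genes had a median of 3 and a maximum of 55, and 1699 genes (24.7%) had 1 site. In single libraries the median was 8, 10 and 10. Protein-coding genes held 70336 of the bases called in all 3 and long noncoding RNA genes 2251, with a median sum of 169.8 for the former and 52.2 for the latter among genes with such a base.

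The highest single reproducible sites lay in 1 gene of the AP-1 family and in several genes of other kinds. JUND, an AP-1 transcription factor, held the 2 highest, 671 and 619 nt before the annotated 3′ end of the gene. The former (chr19:18280365, minus strand) had scores of 168, 216 and 199.9 and the latter (chr19:18280313) 176, 203 and 180.2. LHFPL2, a membrane protein, followed with 179, 191 and 179, SLC35E1, a transporter-like protein, with 193, 168 and 187, and DDIT4, a stress-induced inhibitor of mTORC1, with 183, 175 and 174. AP5B1, a subunit of an adaptor complex, had 179, 192 and 161. The combined scores of the sites after JUND lay within 183 to 164 for the next 10 sites, so their order is not separated by the spread between libraries. Over the whole list the combined score ran from 10.0 to 194, with a median of 32.9.

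Called bases lay mainly in the last part of the gene span. The span runs from the annotated 5′ end to the 3′ end and includes introns. The last 10% of it held 38.1%, 36.4% and 37.7% of the called bases in replicates 1 to 3 (37.4% ± 0.904, SD, n = 3), and the first 10% held 16.9% ± 0.989. Each further step of 10% up to the middle held under 5% in every library, and the 3 libraries followed nearly the same course. Past the midpoint lay 67.2% ± 1.09 of called bases and 73.0% of reproducible sites.

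The rise toward the 3′ side depended on the length of the span. Of bases called in all 3 libraries, 11.1% lay in the last 10% of the span in genes under 5 kb and 52.6% in genes of 100 kb or more. In those under 5 kb 53.7% lay past the midpoint. In distance, 8.60% ± 0.160 of called bases (SD, n = 3) lay within 500 nt of the annotated 3′ end and 16.9% ± 0.273 within 1000 nt. For reproducible sites, 0.590% lay within 100 nt of the 3′ end, 14.7% at 1000 to 2000 nt, 24.9% at 2000 to 5000 nt and 29.9% at 10000 nt or more. Exons were not used here, so distances include introns and no stop codon could be placed.

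The 5′ end formed a separate group. Within 50 nt of it lay 6.15%, 6.99% and 6.05% of called bases in replicates 1 to 3 (6.40% ± 0.512), 7.28% of those called in all 3 and 4.20% of reproducible sites. Bases called in all 3 libraries within 2 nt of an annotated start were found in 1618 genes. The plot of positions shows them concentrated at the annotated start and 1 nt before it.

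**Figure D3:**
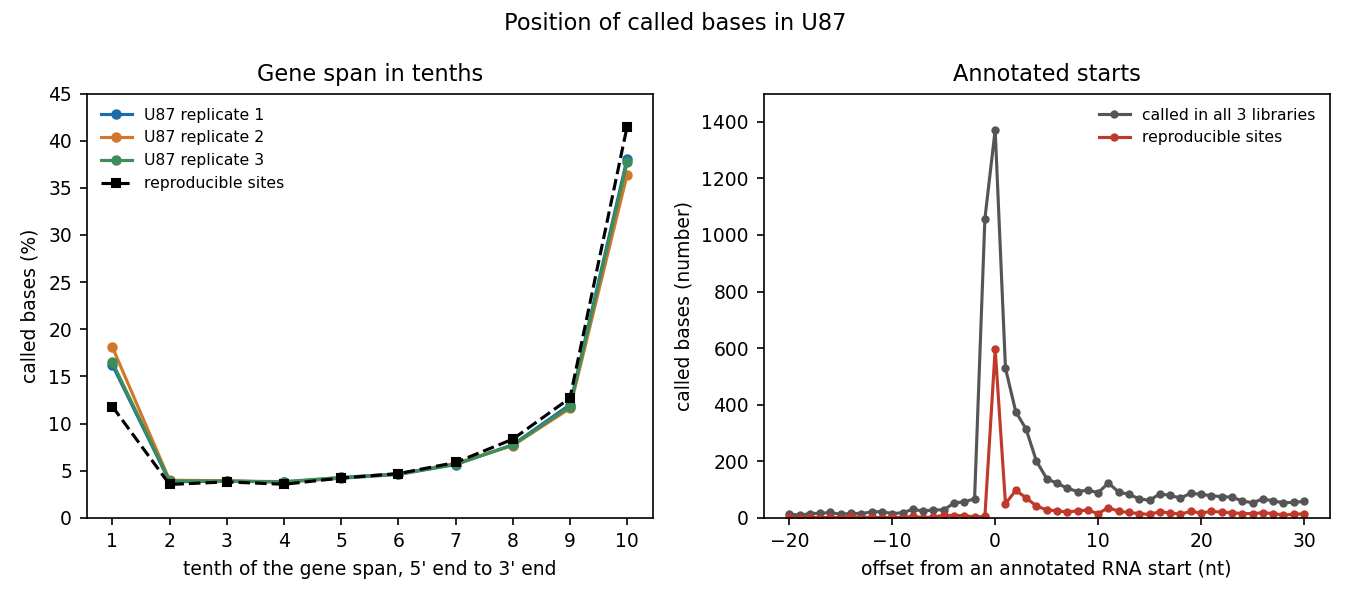
Left, share of called bases (y axis, percent) in each 10% step of the gene span from the 5′ end, for the 3 U87 libraries and the reproducible sites; right, number of called bases (y axis) by offset from an annotated RNA start (x axis, nt). The last step holds 36.4% to 41.5%, and 1372 bases called in all 3 stand at offset 0 and 1057 at offset -1.

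Genes differed in which end carried their bases. Among genes with at least 20 bases called in all 3 libraries, CAV1, which encodes the membrane scaffold caveolin-1, had the largest share within 50 nt of the 5′ end, 30.8% of 26. ITGB1, the integrin beta 1 chain, had 27.3% of 22, the death receptor TNFRSF10B 26.1% of 23, and IL6ST, the signal transducer of interleukin-6 cytokines, and PID1 25.0% of 24 each. ITGB1 had no reproducible site. At the other end, RAC2, a small GTPase, had 68.2% of 22 bases within 500 nt of the 3′ end, and TMEM203, a short gene of 1.57 kb, 55.0% of 20. EXOC7, an exocyst subunit, and POMGNT2, a glycosyltransferase, had 47.6% of 21 each, and EGLN2, an oxygen-dependent prolyl hydroxylase, 44.0% of 25. MACF1, SON, IRS1, ARHGAP35 and WNT5A, the 5 genes with the most bases among those with none at either end, had 92, 82, 73, 70 and 64 bases in the body of the gene.

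Called bases were clustered. Among bases called in all 3 libraries the nearest other such base on the strand was 1 nt away for 23.4% and over 100 nt away for 16.2%, with a median of 18 nt. Joined at gaps of at most 100 nt, they formed 32180 clusters, of which 12925 were single bases and 4045 held 5 or more. Those of 5 or more held 32.5% of the bases and lay in 2703 genes, with a median length of 130.0 nt, and 279 clusters held 10 or more. AHNAK, COL6A3 and PLEC each had 9 clusters of 5 or more.

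Direct neighbours were largely absent from the reproducible list. Every listed site with a known letter was an A, so there a pair 1 nt apart could be listed only where both bases were A. The nearest other reproducible site was 1 nt away for 0.551% of the 33396 sites, and the median distance was 53 nt. Of these sites 10.8% lay in clusters of 5 or more, and the largest cluster held 18. Between neighbouring reproducible sites, 96 pairs were 1 nt apart and 244 were 4 nt apart, against 10937 and 918 pairs among bases called in all 3.

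**Figure D4:**
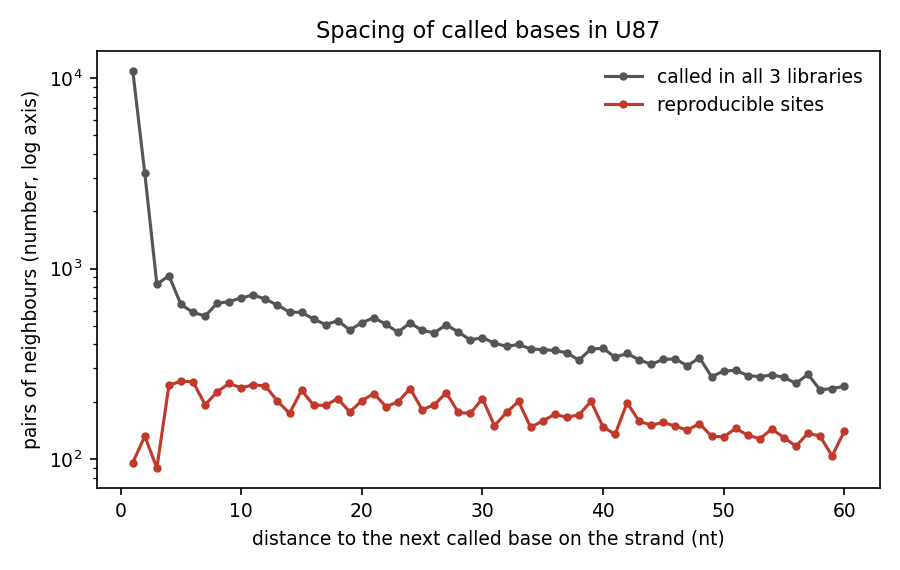
Number of neighbouring pairs (y axis, log scale) by the distance between called bases on the strand (x axis, 1 to 60 nt), for bases called in all 3 U87 libraries and for reproducible sites. Bases called in all 3 start at 10937 pairs at 1 nt and reproducible sites at 96.

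The largest cluster lay in TNC. It held 32 bases called in all 3 libraries and 18 reproducible sites over 915 nt (chr9:115085941-115086855, minus strand), between 31302 and 32216 nt from the 5′ end of the span. Its sums were 4031, 4037 and 3961, of gene sums of 4873, 5189 and 4909, so most of the score of TNC came from this stretch in each library. WNT5A, which encodes a secreted Wnt ligand, had 24 bases over 646 nt with sums of 1208, 1178 and 1272, and ITPRIP, a protein that interacts with the inositol trisphosphate receptor, 22 bases over 851 nt with 1914, 1741 and 1764. GJA1, the gap junction protein connexin 43, had 22 bases over 792 nt with 1485, 1694 and 1722. JUN, an AP-1 transcription factor, had 20 bases over 609 nt with 2271, 2335 and 2284. In all 5 clusters the highest library was less than 1.2 times the lowest.

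The authors' peaks are short tiles, with a median of 37 nt, and 83.5% of the 95629 were found in all 3 libraries. They joined into 29905 regions. A base called in all 3 libraries lay in 44.6% of peaks and a reproducible site in 32.0%. Of bases called in 1, 2 and 3 libraries, 45.1%, 56.8% and 73.7% lay in a peak. Among peaks above the median of the authors' peak score 35.8% held a reproducible site, and among those below it 28.1% did.

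Gene lists were then described by how many members carried a base called in all 3 libraries, beside the background of 42.8% of 19510 protein-coding genes (8352) and 2.68% of 18030 long noncoding RNA genes. A reproducible site was carried by 33.9% of protein-coding and 1.41% of long noncoding RNA genes. Not counted were genes whose only such bases lay in a span shared with another gene, and genes with no assigned strand whose span held such a base on either strand. RNAs that U87 cells do not express cannot carry a call, and the share of a list reflects expression as well as methylation.

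Marker genes of the labelled cell line were also described, although a missing call does not show that an RNA is absent. Of 12 genes expressed in astrocytic and mesenchymal glioma, 11 carried a base called in all 3 libraries, among them TNC, the hyaluronan receptor CD44 (1149 ± 155) and CAV1 (1106 ± 137), and ANXA2 had none. None of 18 markers of other cell types did, and the highest mean sum among them was 7.62, for PECAM1. PTPRC, CD3E, EPCAM, RBFOX3, SNAP25 and ALB had no called base in any library. CDKN2A and CDKN2B, which U87 is known to have lost, had none either.

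The genes of the m6A machinery carried called bases themselves. Of 13 writers 11 had a base called in all 3 libraries and 10 a reproducible site. RBM15B and RBM15, which bring the complex to its targets, had sums of 1552, 1984 and 1788 and of 688, 1090 and 876, and the regulatory subunits WTAP and VIRMA had 1059, 1054 and 1206 and 594, 765 and 779. The catalytic pair stood lower. METTL14 had 152, 281 and 284 with 9 bases called in all 3, and METTL3 had 95.7, 122 and 122 with 5. METTL5, a methyltransferase of ribosomal RNA, had no called base.

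Among 15 erasers and readers 14 carried such a base. YTHDF3 and YTHDF2, cytoplasmic readers that act on the decay of methylated RNA, had means of 1285 ± 140.3 and 1250 ± 81.3 (SD, n = 3), which differed by less than the SDs. PRRC2A had 1061 ± 95.8 and YTHDF1 936 ± 70.7. In these 4 every base called in all 3 libraries lay outside the first 50 nt, but over the whole list 8.52% of 176 lay within it, against 7.28% over all genes. HNRNPC and FMR1, RNA-binding proteins named after their values were seen, had all of theirs there (6 and 1), and HNRNPA2B1 50.0% of 8.

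Immediate early genes, whose short-lived messages answer growth signals, were called throughout the list. All 27 that could be counted carried a base called in all 3 libraries and 26 a reproducible site, with a median sum of 962, where the median over protein-coding genes with such a base was 169.8. DUSP6 could not be counted, because its 37 such bases lay in a span shared with another gene. JUN had sums of 3716, 3970 and 3722. FOSL2, another AP-1 factor, had 1889, 2921 and 2181, and JUND had 2125, 2096 and 2651. IER3, a short-lived survival factor, had 1894, 2159 and 1956. In FOSL2 replicate 2 was the highest library and in JUND replicate 3. MYC had 1454, 1434 and 1308 with 30 bases called in all 3 libraries, all in the body of the gene.

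Chromatin regulators also carried many called bases. Of 33 counted, 31 had a base called in all 3 libraries and 28 a reproducible site, and the median member had 17 such bases. KMT2D had sums of 1602, 2458 and 2136. ARID1B and ARID1A, subunits of SWI/SNF remodellers, had 1868, 1835 and 2270 and 1565, 1972 and 1867, and the histone methyltransferase-like SETD5 had 1305, 1538 and 1505. The deacetylases HDAC1 and HDAC2, named after their values were seen, had no base called in all 3. Of 639 bases called in all 3 in the list, 313 (49.0%) were on the reproducible list, against 41.1% over all genes.

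Extracellular matrix genes were unequal. Of 26, 21 carried a base called in all 3 libraries and 19 a reproducible site. After COL6A3 and TNC came COL6A2 with sums of 2171, 2068 and 2708 and COL6A1 with 1574, 1217 and 1551. By contrast COL4A1 had no called base, and FN1, the fibronectin gene, had 3 bases in replicate 3 and none in the other libraries; both were named after their values were seen. Of the 449 bases called in all 3 in the list, 28.1% were on the reproducible list.

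Secreted growth factors and cytokines carried such a base in 20 of 24 members and a reproducible site in 19. VEGFA, the main angiogenic factor, had sums of 3634, 3897 and 4249, and WNT5A 3566, 3531 and 4175. LIF, a cytokine of the interleukin-6 family, had 3214, 3653 and 3394, and CSF1, the growth factor of macrophages, 1540, 1495 and 1588. VEGFA and LIF had nearly the same number of bases called in all 3, 48 and 47, but 23 and 11 reproducible sites. CSF1 had 19 reproducible sites beside 28 bases called in all 3.

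Receptor tyrosine kinases were closer to the background, with 14 of 25 called. EGFR had sums of 1709, 1482 and 1585 and 37 bases called in all 3. MET, the receptor of hepatocyte growth factor, had 983, 1209 and 1076, the ephrin receptor EPHB2 609, 592 and 864, and the collagen receptor DDR2 569, 576 and 765. EGFR was the highest in each library.

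Long noncoding RNAs of the list carried a base called in all 3 in 14 of 23 members. MALAT1 had sums of 3190, 2688 and 4044 and TUG1 2847, 2728 and 3340. NORAD, a cytoplasmic RNA that binds Pumilio proteins, had 2414, 2638 and 2660. NEAT1, the scaffold of paraspeckles, had 2767, 1456 and 3050. Replicate 2 was the lowest library for MALAT1, TUG1 and NEAT1, and replicate 1 for NORAD. TUG1 is typed as protein-coding in the gene table.

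Abundant housekeeping transcripts behaved differently from one list to the next. Of 24 genes of the cytoskeleton and housekeeping list 19 carried a base called in all 3 libraries, with TUBB6 at 1871 ± 156, the elongation factor EEF2 at 1592 ± 40.1, TUBB4B at 1172 ± 71.8 and ACTB at 1079 ± 42.9 (SD, n = 3). Of 85 ribosomal protein genes 25 did, below the background of 42.8%, and 9 had a reproducible site. RPL13 had 584, 371 and 719.5, and RPL7L1, a ribosomal protein-like member of the list, had 352, 511 and 407. RPL13A had 398, 315 and 431 and RPL29 398, 351 and 393. Many ribosomal protein genes have processed copies that share reads with them, and the sources used here do not say how such reads were treated, so these values are uncertain. The same holds for GAPDH, with a sum of 34.4 in replicate 2 and 0 in the others, and for EEF1A1, PPIA and LDHA, listed at 0; these 4 were named after their values were seen.

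Genes of oxidative phosphorylation carried many of their bases at the 5′ end. Of 81 nuclear genes of oxidative phosphorylation, 39 had a base called in all 3 libraries, 48.1% beside the background of 42.8%. A reproducible site was carried by 20 (24.7%), below the 33.9% of protein-coding genes. Within 50 nt of the 5′ end lay 101 of the 175 bases called in all 3 in the list (57.7%), against 7.28% over all genes, and in the single libraries 50.4%, 51.3% and 46.1%. In 20 of the 39 genes every such base lay there, against 493 of 8836 genes (5.58%). No list was matched to all genes by span. Over all genes, 11.1% of such bases in spans under 5 kb and 3.85% in spans of 100 kb or more lay there. COX8A, a subunit of cytochrome c oxidase, had sums of 365, 459.6 and 317 with all 7 bases there and none on the reproducible list. COX6A1 had 485, 593 and 595 with 54.5% of 11 bases there, and UQCR11, of complex III, 376, 415 and 405 with 44.4% of 9. UQCR10 went the other way, with 355, 418 and 393 and none of 8 bases there.

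Glycolysis enzymes showed a smaller share, 22 of 69 bases (31.9%), with 19.7% to 21.4% in the single libraries. Of 16 counted, 11 (68.8%) carried a base called in all 3, above the background of 42.8%. Only 4 (25.0%) carried a reproducible site, below the 33.9% of protein-coding genes. HK2, the inducible hexokinase, had 622, 377 and 739 with 25.0% of 12 bases at the 5′ end. PKM, pyruvate kinase, had 315, 582 and 409.7 with none of 13 bases there. ENO1, enolase, had 457, 471 and 354 with 83.3% of 6 bases at the 5′ end, and PFKP 373, 346 and 441 with 33.3% of 9. Chromatin regulators had 2.03% of their bases within 50 nt of the 5′ end, long noncoding RNAs 2.55% and immediate early genes 4.37%.

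Zinc finger genes had few of their bases at the 5′ end. Of 501 ZNF genes, which encode DNA-binding proteins, 233 carried a base called in all 3, 46.5% beside the background of 42.8%, and 1.76% of their 1817 bases lay within 50 nt of the 5′ end. In none of the 233 were all bases there. ZNF503 had 2948, 2835 and 3006, ZNF865 1503, 1428 and 1531, ZNF217 1331, 1461 and 1437 and ZNF316 1142, 903 and 1482. Replication-dependent histone genes, whose messages are known to end without a polyA tail in most cases, carried such a base in 6 of 68 (8.82%). Among the 6 were H2BC12 with 184, 202 and 233, H2BC21 with 137, 63.4 and 165, H1-2 with 40.0, 107 and 77.3 and H2AC6 with 44.1, 44.7 and 50.9. Of only 20 bases in these histone genes, 13 lay within 50 nt of the 5′ end.

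**Figure D5:**
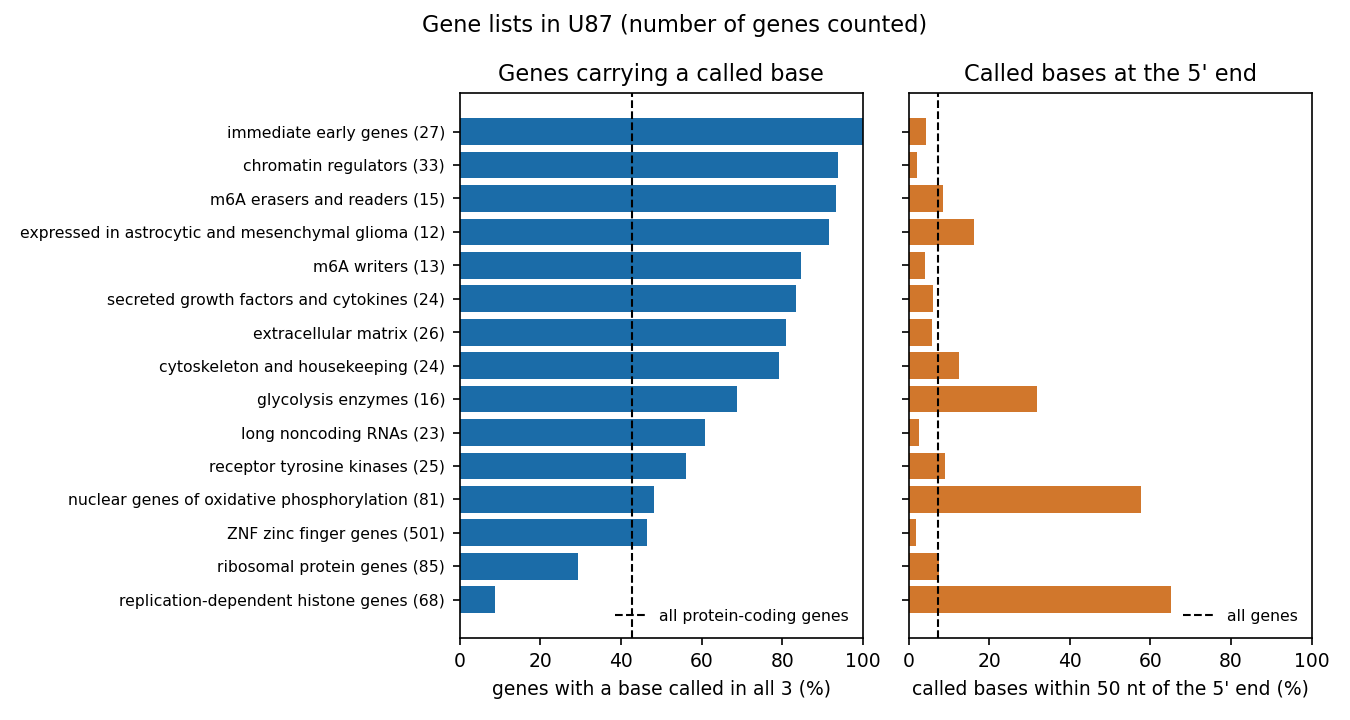
Left, share of each list's genes with a base called in all 3 U87 libraries (x axis, percent; number of genes counted in parentheses), with all protein-coding genes dashed; right, share of the lists' bases called in all 3 that lie within 50 nt of the 5′ end (x axis, percent), with all genes dashed. The left bars run from 8.82% for histones to every counted immediate early gene, and the right bar of oxidative phosphorylation reaches 57.7% and that of histones 65.0%, the latter from 20 bases.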

How the data were processed

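The authors deposited, per eCLIP library, a list of called bases with position, strand and a score. As the values show, this score is the smallest of 4 scores beside it. For U87 as a group, the authors' deposited reproducible sites and peaks come with a fraction, the share of libraries in which the item passed, and a combined score. For sites with a fraction of 1 that score was the geometric mean of the library scores. Reads were handled with cutadapt, UMI-tools and STAR against hg38, per the submitters' processing notes; versions and callers are not given there. Both kinds of joined list have no replicate error.

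Bases were joined by position and strand with pandas 2.3.3 (Python 3.11.15). Genes came from RefSeq on GRCh38.p14. A gene's strand came from the RefSeq table of RNA starts (27303 genes), or, where that has none, from at least 5 called bases with at least 80% on 1 strand (1498 genes). Among 4175 isolated genes with both, the 2 agreed in 99.0%. Of 288763 bases, 254159 (88.0%) lay in 1 gene of their strand. A base in both a protein-coding and a noncoding gene went to the former. Starts were 35116 windows, matched by gene. Peaks held a base at an overlap of 1 nt on the strand. Clustering and assignment were tested on simulated data.

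The genes named are the 12 with most bases called in all 3 libraries, the 12 with the highest mean sum, the 12 highest bases, the 5 largest clusters, the 5 widest ratios, 5 per position class, up to 4 per gene list by mean sum (1 of them is not reported here), and METTL3, METTL14, MALAT1, EGFR, MYC, TNC, CDKN2A and CDKN2B. The rankings by reproducible sites, the 12 sequences (highest combined score per class) and single genes beside a count were added after the values were seen. All lists and choices were made with earlier results of these data known. No test was run, because there is 1 group. The closing section gives the effect of score minimums, gaps, windows, gene filters and left-out replicates.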

Additional observations from a re-analysis of the deposited data

How the results depend on the processing

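No paired analysis was possible because 1 group was described and no comparison was tested. Depth is unknown, so no counting error can be given.

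The share of bases called in all 3 libraries, 27.6%, was 40.9% with a score of at least 10 in each library, 37.0% and 46.6% when a call within 1 or 5 nt counted, and 36.8% inside reproducible peaks, an alternative chosen after seeing the data. Without replicates 1 to 3 in turn it was 41.0% to 41.7%, where 2 libraries must share a base instead of 3. Of the 12 genes with most bases, and of the 12 with the highest sums, 8 to 12 remained among the 12 under each alternative except per kb of gene span, under which 0 remained in both. Leaving out 1 replicate, 12 and 11 remained.

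The median of 5 bases per gene was 15.0 for bases called in any library and 3.00 for reproducible sites, and 6.00 without any 1 replicate. The 787 genes with 20 or more were 4654 and 124, and 1062 to 1213 without 1 replicate, with the 1213 without replicate 1. The share within 50 nt of the 5′ end, 6.40%, was 7.28% for bases called in all 3, 4.20% for reproducible sites, 6.99% weighted by score and 5.82% in spans of at least 10 kb. The share within 500 nt of the 3′ end, 8.60%, was 8.81%, 8.40%, 9.17% and 6.52% in the same order, and 8.39% in protein-coding genes. The share in the last 10% of the span, 37.4%, was 41.5% for reproducible sites, 38.5% weighted by score and 42.3% in spans of at least 10 kb. The share in clusters of 5 or more, 32.5%, was 15.1% and 52.8% at gaps of 50 and 200 nt, 10.8% for reproducible sites and 37.8% to 40.4% without 1 replicate. Of bases called in all 3, 73.7% lay in a peak, 79.3% within 10 nt of one and 39.8% in peaks above the median peak score. Ranking genes by reproducible sites (8 of 12 remained in both) and using strands of the gene table only, which moved the position shares by less than 1 SD, were also chosen after seeing the data. All 60 recounts of the gene lists stayed within 1.5 times. The cause of these shifts was not tested.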

Other observations

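The highest scores among bases called in all 3 libraries mostly stood outside the authors' reproducible list. Of the 12 with the highest geometric mean of scores, 1 was on that list, 6 lay outside reproducible peaks and 7 were assigned to no single gene of their strand, whether because no gene was there or because 2 or more were. The highest was a mitochondrial base (chrM:304, minus strand) with scores of 567, 637 and 594 in replicates 1 to 3, and its neighbour chrM:303 had 257, 335 and 313. The next was on chromosome X at 49039136, plus strand, with 472, 708 and 349.9, in the span of TFE3 but not on its strand. A base of CCK on chromosome 3 at 42265257, outside any reproducible peak, had 193, 166 and 447, and 2 neighbouring bases of LZTR1 on chromosome 22 at 20997698 and 20997699 had 241, 233 and 208 and 219.7, 215 and 188. JUND held the 1 that was on the list, and its neighbour 1 nt away, at 18280366, had 180.2, 207 and 193 and was not on it. Of the 100 highest bases, 46 were on the list and only 7 lay outside reproducible peaks.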
